A study of Homo sapiens with 39 samples.

Results

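Etoposide was given to HepaRG cells at 3 concentrations, and 3 of the 39 libraries of the series hold these cells, 1 library each at 0.5, 2.5 and 10 µM. They were chosen by the etoposide label and concentration in the sample titles, and all 20802 gene targets of the panel were read in each. HepaRG is a human hepatic cell line from a hepatoma that can be differentiated into hepatocyte-like and biliary-like cells. The differentiated cells were kept for 7 days after seeding, treated on 3 consecutive days and collected 7 h after the last treatment, 55 h after the first. RNA of 3 cultures was pooled into each library, so a concentration has no replicate library. The matched control held cells given the vehicle, DMSO, and is labelled as the vehicle control for etoposide. The 3 further DMSO controls are labelled as those for cisplatin, for 2-nitrofluorene, and for aflatoxin B1 and colchicine. Each etoposide library was therefore set against the matched control and, separately, against the mean of the 3 other DMSO controls.

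Etoposide holds topoisomerase II on the DNA it has cut, so that the enzyme's transient double-strand breaks persist. Such breaks activate the kinase ATM and the transcription factor p53, which raises genes of cell cycle arrest (CDKN1A), of its own turnover (MDM2) and of cell death (PMAIP1, FAS). Genes of the cell cycle are transcribed in waves: E2F factors drive the S-phase genes of DNA replication, and a later programme built on B-MYB and FOXM1 drives the genes of G2 and mitosis.

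The libraries held 8504699 (10 µM) to 13966635 reads (DMSO control of aflatoxin B1 and colchicine). No library repeated another within sampling noise (chi-square per degree of freedom 6.71 to 23.7 over pairs). Of the hepatocyte markers, ALB was read at 17792 to 33206 RPM (reads scaled to the same library total) in the 7 libraries, whereas the biliary markers KRT7 and EPCAM were at or near 0 and KRT19 was read at 397 to 1233 RPM. The controls differed among themselves: 126 targets of the matched control were more than 2-fold away from the mean of the other DMSO controls on the log2(RPM + 1) scale, 121 of them lower. The DMSO controls of cisplatin, 2-nitrofluorene and aflatoxin B1 had 31, 62 and 94 such targets against the mean of the 3 controls that remained in each case. In pooled RNA, a gene read lower because fewer cells expressed it cannot be told apart from one with less RNA per cell.

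With the concentration of etoposide 16 genes rose, among them RRM2, PCNA, TK1 and TYMS of the list of DNA replication. A slope over the concentration, coded as log2(1 + concentration/0.5 µM), was fitted to the counts of the 3 etoposide and 4 DMSO libraries by edgeR's quasi-likelihood test, and changes are the fitted log2 change from DMSO to 10 µM. Of 12983 genes tested, 16 (0.123%) rose at an adjusted p under 0.05, and 0 (0%) fell. Of the 16, ASF1B, FAM111B and KIAA0101 were also called in a fit of all 39 libraries with the control sets as blocks, described further on, and the others, RRM2, PCNA, TK1, TYMS, PMAIP1 and SFN included, were not. At an unadjusted p under 0.05, edgeR found 519 higher (4%) and 328 lower (2.53%). At an adjusted p under 0.05, the threshold of all its calls here, DESeq2 called 79 higher and 6 lower. The fitted changes of the 16 genes ran from 0.91 (MICALL1) to 2.65 (TMEM40), with adjusted p of at most 0.0312. All 16 were above each of the 4 DMSO controls at both 2.5 and 10 µM, against 18.8% and 17.8% of all tested genes. At 0.5 µM 9 of the 16 were above them, against 16.1%. The 16 were chosen by a slope fitted to these same libraries, so these counts are no separate evidence of a rise. With the concentration on a linear scale, or with the 3 etoposide libraries set against the 4 controls in a single step, 0 genes were called. Without the DMSO control of 2-nitrofluorene or of cisplatin 8 and 9 genes were called, and 9 and 10 without the 0.5 or the 2.5 µM library. ASF1B, KIAA0101 and RRM2 remained called whichever library was left out.

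**Figure D1:**
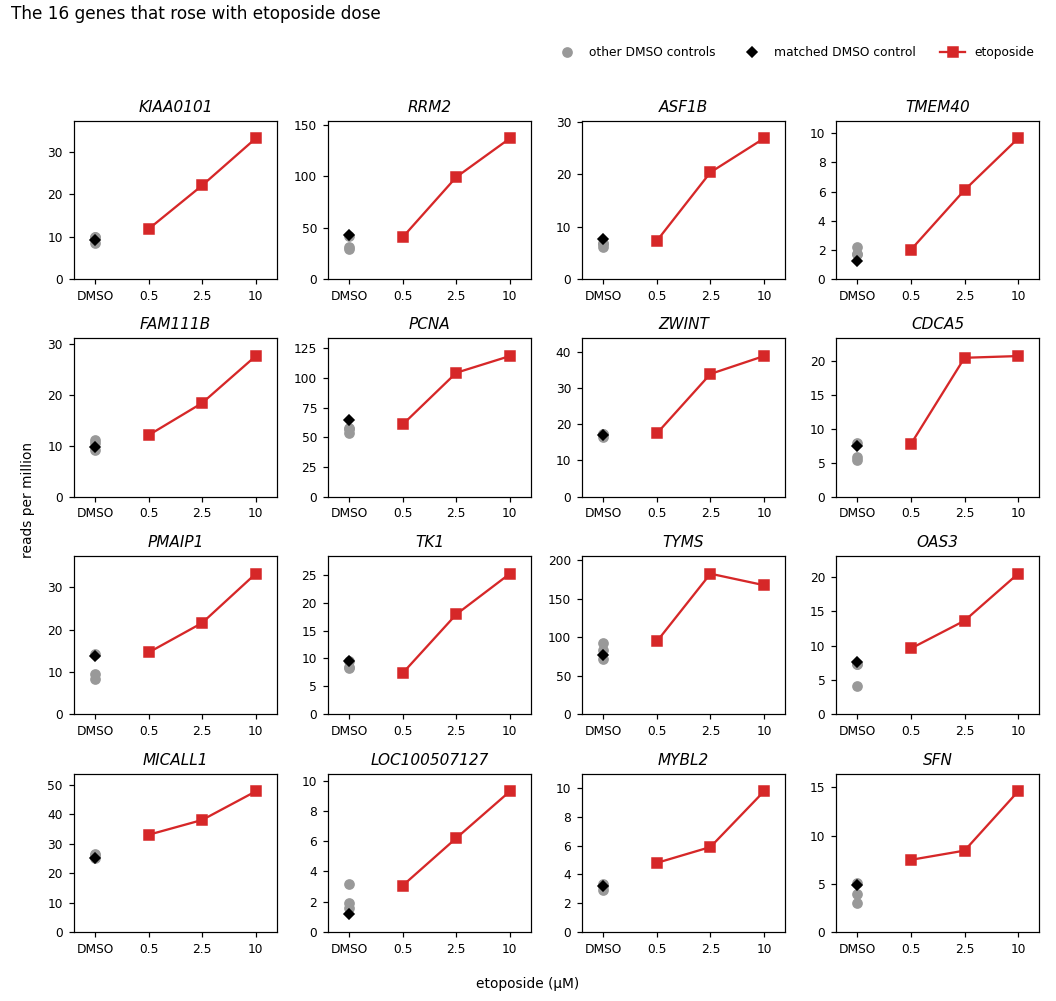
Read level (RPM, vertical axis from 0) of the 16 genes that rose with dose, against the etoposide concentration in µM. Squares are the etoposide libraries, the diamond is the matched DMSO control and grey circles are the 3 other DMSO controls. Of the 16 genes, chosen by their rising slope in these libraries, 15 were higher at 10 µM than at 2.5 µM.

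The promoters of the 3 genes with the smallest p in this fit are shown, with those of NUSAP1 and CENPF, which had the smallest p of the called mitosis genes with a promoter in the table, in the fit up to 2.5 µM described further on (TPX2, with a smaller p, has none there). They are the 150 bases before the transcription start, from RefSeq on GRCh38.p14, on the strand of the gene. Capitals mark matches on either strand to the CCAAT box (CCAAT) and to the cell cycle homology region, CHR (TTTGAA); the E2F-type motifs TTTCCCGC, TTTGGCGC, TTTCGCGC and TTTGCCGC were searched too and did not occur in these stretches.
KIAA0101 (chr15:64387688-64387837, minus strand): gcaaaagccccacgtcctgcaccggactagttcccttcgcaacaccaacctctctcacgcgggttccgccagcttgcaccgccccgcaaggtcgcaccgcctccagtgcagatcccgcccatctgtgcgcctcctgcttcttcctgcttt
RRM2 (chr2:10122589-10122738, plus strand): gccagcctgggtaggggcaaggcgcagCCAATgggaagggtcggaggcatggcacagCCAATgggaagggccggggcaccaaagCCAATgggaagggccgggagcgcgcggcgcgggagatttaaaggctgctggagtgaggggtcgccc
ASF1B (chr19:14136590-14136739, minus strand): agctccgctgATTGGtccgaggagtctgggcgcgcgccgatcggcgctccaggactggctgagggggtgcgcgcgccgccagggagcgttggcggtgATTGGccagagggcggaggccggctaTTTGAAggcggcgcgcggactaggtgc
NUSAP1 (chr15:41332731-41332880, plus strand): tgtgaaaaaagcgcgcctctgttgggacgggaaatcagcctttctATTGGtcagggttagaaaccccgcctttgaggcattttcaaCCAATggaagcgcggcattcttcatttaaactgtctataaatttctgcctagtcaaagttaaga
CENPF (chr1:214603045-214603194, plus strand): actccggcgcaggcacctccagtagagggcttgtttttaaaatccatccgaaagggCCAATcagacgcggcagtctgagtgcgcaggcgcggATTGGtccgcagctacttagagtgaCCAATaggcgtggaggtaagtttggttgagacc
RRM2 had 3 CCAAT boxes in this stretch, ASF1B 2 and a CHR motif, NUSAP1 2 and CENPF 3, while KIAA0101 held none of these letters. Outside the printed bases, in the longer window of 300 bases, NUSAP1 also held an E2F-type and a CHR motif and CENPF a CHR motif. Over the whole 300 bases of the RefSeq window, from 250 before to 50 after the start, promoters were found for 14 of the 16 genes. An E2F-type motif stood in 4 of the 14 (CDCA5, OAS3, PCNA and TYMS; 28.6%) and in 3.33% of all 27305 promoters. A CHR motif stood in 2 of the 14 (14.3%, against 15.4% of all promoters), and a CCAAT box in 5 (35.7%, against 35.7%).

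KIAA0101, which encodes a PCNA-associated factor, was read at 11.8, 22.1 and 33.2 RPM at 0.5, 2.5 and 10 µM, against 9.15 RPM in the matched control and 8.58, 9.95 and 9.88 RPM in the other DMSO controls. The 3 etoposide libraries stood above all 4 controls, in the order of the concentrations. The fitted change was 1.88 (SE 0.18, adjusted p = 0.000701). RRM2, the small subunit of ribonucleotide reductase, which makes the deoxynucleotides for DNA synthesis, was at 40.7, 99.0 and 137 RPM. Its DMSO controls ran from 28.9 to 42.9 RPM, so the 0.5 µM library lay within their range and the 2.5 and 10 µM libraries lay above it (change 2.05, SE 0.20, adjusted p = 0.000701). ASF1B, a chaperone that delivers histones to newly made DNA, went from 7.29 to 20.3 and 26.8 RPM, against 6.16 to 7.57 RPM in the controls (change 2.15, SE 0.23, adjusted p = 0.0014).

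PCNA, the clamp that holds DNA polymerases on their template, was at 60.8, 104 and 118 RPM, against 54.0 to 64.8 RPM in the controls, and its fitted change was 1.12 (adjusted p = 0.00741). TYMS and TK1, both enzymes of thymidylate supply, reached 168 and 25.2 RPM at 10 µM from at most 92.6 and 9.61 RPM in the controls (changes 1.28 and 1.55, adjusted p = 0.0205 and 0.0193). Of these genes, TYMS alone was higher at 2.5 µM (183 RPM) than at 10 µM. CDCA5, the cohesin protector sororin, was level between 2.5 and 10 µM (20.4 and 20.7 RPM), with 5.45 to 7.92 RPM in the controls. MYBL2, which encodes B-MYB, was at 4.80, 5.90 and 9.76 RPM, against 2.93 to 3.30 RPM, with a change of 1.59 (adjusted p = 0.0312). The 16 also included FAM111B, ZWINT, TMEM40, OAS3, MICALL1 and LOC100507127.

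Of 24 genes of DNA replication, all tested, 4 rose (RRM2, PCNA, TK1 and TYMS) and 0 fell. The fitted change was above 0 for all 24, compared with 6230 of all 12983 tested genes. Its median was 0.77 against -0.01 over all tested genes. At an unadjusted p under 0.05, 16 of the 24 were higher and 0 lower, against 4% and 2.53% of all tested genes. DESeq2 called 8 higher at an adjusted p under 0.05. At 10 µM 22 of the 24 (91.7%) were above all 4 DMSO controls, compared with 17.8% of all tested genes, and at 0.5 µM only 2 (8.33%, against 16.1%). FEN1, the flap nuclease of Okazaki fragments, had a change of 1.10 that missed the threshold (adjusted p = 0.0517). The MCM2 to MCM7 helicase genes were tested and none passed, with fitted changes from 0.14 (MCM6) to 0.67 (MCM2). Among 8 E2F genes none passed either. E2F7 came closest at 3.84 RPM at 0.5 µM and 7.93 RPM at 2.5 µM, against 2.08 to 3.38 RPM in the controls (change 1.83, adjusted p = 0.0645). DESeq2 called 2 of the 8 higher. By edgeR E2F7 was called with the dose as its level (adjusted p = 0.0396). Without a filter on low counts edgeR called E2F7 (0.0239) and E2F8 (0.043). The replicative histone genes of the HIST clusters did not move together: of 65 targets 42 were tested, and 0 passed by edgeR. At an unadjusted p under 0.05, 6 of the 42 were higher and 1 lower, against 4% and 2.53% of all tested genes. DESeq2 called 2 higher at an adjusted p under 0.05.

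Genes of mitosis were highest at 2.5 µM and lower again at 10 µM. Of 21 such genes 20 were tested, and 19 of the 20 (95%) had more RPM at 2.5 than at 10 µM, compared with 52.2% of all tested genes and 5 of the 24 genes of replication (20.8%). Their median log2(RPM + 1) ratio to the matched control was 0.23, 1.23 and 0.61 at 0.5, 2.5 and 10 µM, against medians of 0.01, 0.00 and -0.01 over all tested genes. Against the mean of the other DMSO controls it was 0.44, 1.33 and 0.54. The difference between 2.5 and 10 µM rests on 1 library each and was not tested.

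**Figure D2:**
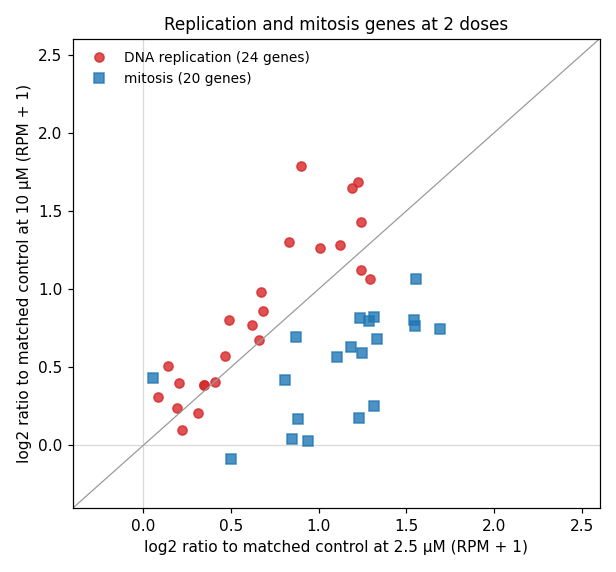
Log2(RPM + 1) ratio to the matched DMSO control at 2.5 µM (horizontal) and at 10 µM (vertical) for the tested genes of DNA replication (red circles, 24) and of mitosis (blue squares, 20), with the line of equal ratios. Of the mitosis genes 19 lie below the line, and of the replication genes 19 lie above it.

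Because of this peak, the slope was also read from DMSO to 2.5 µM alone, in the fit that leaves out the 10 µM library. That fit was singled out after the values were seen. It called 23 of 13052 genes higher (0.176%) and 0 lower (0%), with 423 higher and 215 lower at an unadjusted p under 0.05. Of the 20 tested genes of mitosis 7 were among them (BIRC5, CDK1, CENPF, NUSAP1, PLK1, TPX2 and TTK), whereas the slope up to 10 µM called 0 of these 20. Up to 10 µM, 16 of the 20 were higher at an unadjusted p under 0.05, against 4% of all tested genes. DESeq2 called 7 of the 20 up to 10 µM at an adjusted p under 0.05. CDK1, the kinase that starts mitosis, was at 19.7, 40.7 and 30.1 RPM, against 10.7 to 16.7 RPM in the 4 controls (adjusted p = 0.0157 for the change from DMSO to 2.5 µM). PLK1, a mitotic kinase, was at 13.3, 24.1 and 11.1 RPM, against 7.43 to 9.98 RPM (1.48, adjusted p = 0.0202). CENPF, a protein of the outer kinetochore, was at 27.1, 52.3 and 24.5 RPM, against 15.3 to 22.4 RPM (1.44, adjusted p = 0.00978). MKI67 went from 6.81 to 13.7 RPM in the controls to 13.8, 28.8 and 20.2 RPM and did not pass (adjusted p = 0.0687). Of the 23 genes, promoters were found for 20: 4 held an E2F-type motif (20%, against 3.33% of all promoters), 12 a CHR motif (60%, against 15.4%) and 14 a CCAAT box (70%, against 35.7%).

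TOP2A, which encodes the topoisomerase II isoform of dividing cells and a target of etoposide, followed the genes of mitosis. It was read at 51.3, 112 and 58.7 RPM, against 31.8 RPM in the matched control and 24.8 to 38.1 RPM in the others, so all 3 etoposide libraries were above all 4 controls. Its fitted change was 1.85 up to 2.5 µM (adjusted p = 0.00149) and 1.59 up to 10 µM (adjusted p = 0.222). TOP2B, the isoform also made in resting cells, was at 121, 121 and 102 RPM, within the 95.9 to 147 RPM of the controls. TDP2, which removes trapped topoisomerase II from DNA ends, was at 58.1 to 65.0 RPM against 58.6 to 79.0 RPM, and neither gene passed the test (adjusted p = 0.942 and 0.957). Of the 7 genes of topoisomerases and their repair, 0 were called up to 10 µM by edgeR or DESeq2 and TOP2A alone was at an unadjusted p under 0.05. Without a filter on low counts edgeR called TOP2A up to 10 µM (change 1.57, adjusted p = 0.0433).

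Some p53 target genes were above all 4 controls already at 0.5 µM. CDKN1A, the p21 inhibitor of cyclin-dependent kinases, was read at 795, 811 and 1013 RPM, against 619 RPM in the matched control and 505 to 613 RPM in the others. All 3 etoposide libraries were above all 4 controls, but its fitted change of 0.82 (SE 0.15) missed the threshold (adjusted p = 0.0574). It was called without a filter on low counts (adjusted p = 0.0209), with the dose as its level (0.0275) and by DESeq2 (0.000263), and over all alternatives its adjusted p reached 0.624 (linear dose). GDF15, a secreted stress factor, was at 234, 215 and 266 RPM against 119 RPM in the matched control and 68.3 to 139 RPM in the others, again without overlap (change 1.44, SE 0.36, adjusted p = 0.217). GDF15 was called by edgeR without a filter on low counts (adjusted p = 0.0426). Of the tested genes on the lists of p53 targets, PMAIP1 and SFN alone passed in edgeR's fit of the 7 libraries. PMAIP1, the pro-apoptotic NOXA, was at 14.6, 21.6 and 33.2 RPM, against 8.31 to 14.2 RPM in the controls (change 1.54, adjusted p = 0.0193). SFN, the 14-3-3 sigma protein of G2 arrest, was at 7.49, 8.44 and 14.6 RPM, against 3.05 to 5.08 RPM (change 1.72, adjusted p = 0.0312). Both lost their call when any 1 of the etoposide libraries or the DMSO control of 2-nitrofluorene was left out. Without the DMSO control of cisplatin SFN lost its call too, whereas PMAIP1 kept it.

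**Figure D3:**
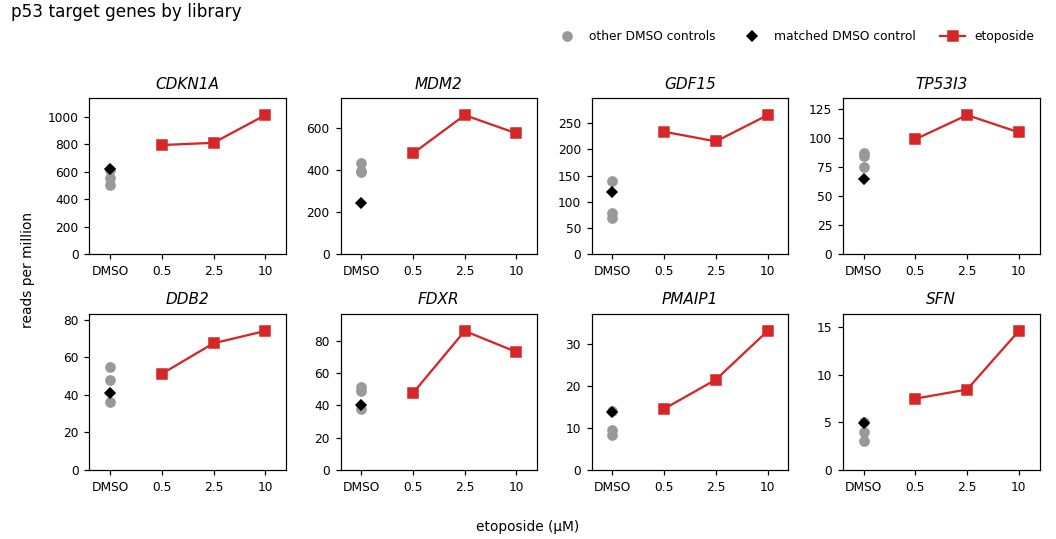
Read level (RPM, vertical axis from 0) of 8 p53 target genes against the etoposide concentration in µM, with symbols as in the plot of the 16 genes. For MDM2 the matched control (diamond, 241 RPM) lies below the 3 other DMSO controls (grey circles, 390 to 431 RPM).

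Of 12 p53 targets of arrest and stress, all tested, 1 rose (SFN) and 0 fell. At an unadjusted p under 0.05, 7 of the 12 were higher, against 4% of all tested genes. DESeq2 called 3 higher at an adjusted p under 0.05. The median ratio of the 12 to the matched control was 0.49, 0.55 and 0.66 at the 3 concentrations and 0.46, 0.41 and 0.53 to the other DMSO controls. At 0.5 µM 8 of the 12 (66.7%) were above all 4 controls, compared with 16.1% of all tested genes. The share was not particular to these p53 targets: it was 65% for mitosis and 80% for NF-kappaB signalling and secretion. For the p53 targets of cell death, of feedback, and of repair and nucleotide supply it was 28.6%, 20% and 25%. Of 14 p53 targets of cell death, 1 rose (PMAIP1) and 0 fell. At an unadjusted p under 0.05, 8 of the 14 were higher, against 4% of all tested genes. DESeq2 called 3 at an adjusted p under 0.05. The median of the 14 was 0.06, 0.42 and 0.57 to the matched control and 0.03, 0.21 and 0.43 to the other DMSO controls. FAS, the death receptor, was at 51.3, 72.5 and 82.0 RPM against 48.8 to 60.3 RPM (change 0.67, adjusted p = 0.146), and BAX was at 140, 147 and 179 RPM against 114 to 135 RPM (change 0.50, adjusted p = 0.296).

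MDM2, the ubiquitin ligase that turns p53 over, was at 478, 660 and 573 RPM. Its log2(RPM + 1) ratios to the matched control (241 RPM) were 0.99, 1.45 and 1.25, but the other DMSO controls held 397, 431 and 390 RPM, and against their mean the ratios were 0.24, 0.70 and 0.50 (change 0.84, adjusted p = 0.353). CCNG1 and AEN showed the same low matched control, at 89.9 and 29.5 RPM against 146 to 148 and 45.3 to 50.6 RPM in the other controls. TP53I3 was at 99.2, 120 and 105 RPM against 64.8 to 87.5 RPM, all 3 above the controls (change 0.58, adjusted p = 0.444). FDXR and DDB2, a ferredoxin reductase and a sensor of DNA lesions, were at 73.0 and 74.1 RPM at 10 µM, against at most 51.6 and 55.1 RPM in the controls (adjusted p = 0.166 and 0.195). Of 5 genes of p53 feedback and 8 of p53-driven repair and nucleotide supply, 0 passed by edgeR, and DESeq2 called 0 and 1 at an adjusted p under 0.05. At an unadjusted p under 0.05, 1 and 3 were higher, against 4% of all tested genes.

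**Figure D4:**
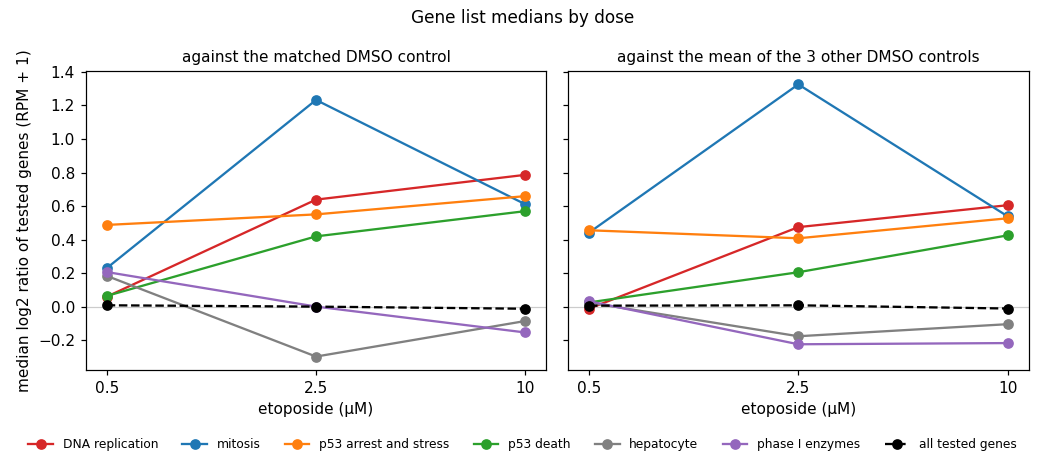
Median log2(RPM + 1) ratio of the tested genes of 6 lists and of all tested genes (dashed) at each etoposide concentration, against the matched DMSO control (left) and the mean of the 3 other DMSO controls (right). The mitosis list peaks at 2.5 µM with either reference (1.23 and 1.33), while the replication list is highest at 10 µM (0.79 and 0.61).

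Of 23 tested genes of the double-strand break response, among them ATM, ATR, the MRN complex and the joining factors, 0 passed by edgeR or DESeq2. At an unadjusted p under 0.05, 3 of the 23 were higher and 1 lower, against 4% and 2.53% of all tested genes. In the fit of 39 libraries 1 of the 23 (BRCA2) was called. At 2.5 and 10 µM 34.8% and 39.1% of them were above all 4 controls, compared with 18.8% and 17.8% of all tested genes. ATM was at 13.6, 17.3 and 8.82 RPM against 7.64 to 18.9 RPM in the controls.

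The genes of hepatocyte function and of drug metabolism showed no call. Of 15 hepatocyte genes, 13 tested phase I enzymes and 16 tested genes of conjugation and transport, edgeR and DESeq2 called 0 in either direction, and 2 (GSTA1 and SLC10A1, both lower) reached an unadjusted p under 0.05. The median ratio of the hepatocyte genes was -0.08 to the matched control and -0.10 to the others at 10 µM, and that of the tested phase I enzymes -0.15 and -0.22. At 2.5 µM the median of the hepatocyte genes was -0.30 and -0.18, and 5 of the 15 lay below all 4 controls, compared with 2141 of all 12983 tested genes. The fitted change was above 0 for 2 of the 15 hepatocyte genes and 1 of the 13 phase I enzymes, compared with 6230 of all 12983 tested genes. CYP3A4, the enzyme that clears much of the etoposide in liver, was at 208, 156 and 126 RPM, against 138 RPM in the matched control and 113 to 279 RPM in the others (change -0.42, adjusted p = 0.928). ABCB1, the P-glycoprotein pump that exports etoposide, was at 105, 101 and 114 RPM against 98.4 to 131 RPM (change -0.05, adjusted p = 0.984). CYP1A1 and CYP1B1 spread widely among the controls themselves, from 132 to 435 and from 35.3 to 390 RPM, and their etoposide libraries lay within those ranges except CYP1A1 at 0.5 µM (460 RPM), above its range, and at 2.5 µM (435 RPM), at its top. Of 8 tested markers of other cell types and 5 tested biliary markers 0 were called by edgeR or DESeq2, with KRT23 higher at an unadjusted p under 0.05, and of the 11 targets of other cell types 2 (COL1A2 and PTPRC) were at 0 in all 7 libraries.

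Among stress responses, the 9 genes of the unfolded protein and integrated stress response, 12 interferon-response genes, and 10 genes of oxidative stress and heat shock had 0 calls by edgeR and by DESeq2, with 1 gene (SLC7A11, lower) at an unadjusted p under 0.05. OAS3, an interferon-inducible gene that is in none of the lists, rose (9.60, 13.6 and 20.5 RPM against 4.19 to 7.64 RPM, change 1.64, adjusted p = 0.0244), whereas its relative OAS1 was at 17.6, 17.4 and 14.6 RPM against 14.5 to 18.9 RPM. Of 10 tested genes of NF-kappaB signalling and secretion 0 passed by edgeR or DESeq2. At an unadjusted p under 0.05, 2 of the 10 were higher, against 4% of all tested genes. The median of the 10 was highest at 0.5 µM (0.84 to the matched control and 0.68 to the others). CCL2, a chemokine, was at 37.7, 36.9 and 34.2 RPM, against 15.2 to 24.7 RPM in the controls (change 0.94, adjusted p = 0.495).

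By edgeR with all 7 libraries 0 genes fell past the threshold. DESeq2 called 6 lower (DDIT4, GPN2, MLYCD, TENM1, TSC22D3 and UQCRHL), and without the matched control edgeR called 6 lower, GPN2 among them, beside 18 higher. The 10 lowest by p among the falling genes were DDIT4, TSC22D3, TENM1, MLYCD, UQCRHL, FASTKD5, PFKFB1, GPN2, SLC25A20 and IL6R, with adjusted p from 0.141 to 0.237. DDIT4, an inhibitor of mTORC1, was at 243, 182 and 158 RPM against 226 to 274 RPM, so that the 2 higher concentrations lay below all controls (change -0.66, SE 0.14). TSC22D3, a glucocorticoid-induced gene, was at 620, 463 and 435 RPM against 602 to 725 RPM (change -0.61, SE 0.14).

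Counted gene by gene, 15 targets (0.0721% of 20802) were more than 2-fold higher against both references at 0.5 µM, 94 (0.452%) at 2.5 µM and 47 (0.226%) at 10 µM. Lower by as much were 1 (0.00481%), 0 (0%) and 0 (0%). No test goes with these counts, and the DMSO controls of cisplatin, 2-nitrofluorene and aflatoxin B1, set in the same way against the matched control and the 2 remaining controls, gave 4, 15 and 48 higher and 0, 10 and 6 lower. At 2.5 µM the 94 included 13 of the 21 genes of mitosis and 2 of the 24 of replication, and at 10 µM the 47 included 0 and 5. At 0.5 µM they included the early-response genes FOSB and ATF3. FOSB was at 35.7, 10.4 and 9.52 RPM, but the DMSO control of aflatoxin B1 held 35.1 RPM and the others 4.29 to 5.22 RPM. Of 6 tested immediate-early genes 0 were called in the dose trend by edgeR or DESeq2, and IER3 was higher at an unadjusted p under 0.05. The counts moved by more than 1.5 times with the pseudocount and against the matched control alone, and at 0.5 and 10 µM also against the mean of the other DMSO controls alone.

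With all 39 libraries in 1 fit, each chemical keeping its own slope over its 3 concentrations and each set of libraries its own control, the etoposide slope was judged against the spread about the slopes of all chemicals. It called 11 of 13812 genes higher (0.0796%) and 0 lower (0%), with 411 higher and 179 lower at an unadjusted p under 0.05. At an adjusted p under 0.05, DESeq2 called 36 higher and 0 lower. The 11 genes called by edgeR were ASF1B, KIAA0101 and FAM111B, the replication-licensing and origin genes CDC6, CDT1 and CDC45, the ubiquitin-ligase adaptor DTL, the recombination gene BRCA2, and GSN, S100A2 and TREM2. CDC45, a part of the replicative helicase, was at 3.36, 6.81 and 9.76 RPM, against 2.35 RPM in the matched control but 3.55 to 5.94 RPM in the others (change 2.16, adjusted p = 0.00622). S100A2 was at 98.2, 268 and 241 RPM, against 61.5 RPM in the matched control and 235 RPM in the DMSO control of aflatoxin B1. The etoposide slope in this fit rests on the matched control alone. The calls fell to 0 where only the sets with a DMSO control were kept, and to 2, 5 and 5 without the 0.5, 2.5 or 10 µM library.

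Aflatoxin B1, 2-nitrofluorene, cisplatin and methyl methanesulfonate, DNA-damaging chemicals of the same series, were set beside etoposide, at their own concentrations, numbered from 1 (lowest) to 3. Aflatoxin B1 was given at 0.25, 1 and 2.5 µM, 2-nitrofluorene at 10, 50 and 250 µM, cisplatin at 2, 5 and 10 µM and methyl methanesulfonate, whose control was water, at 50, 100 and 200 µM. The median ratio of the genes of mitosis to the matched control went 0.24, 1.23 and 0.59 with etoposide, 0.64, 1.10 and 1.68 with aflatoxin B1, 1.04, 1.73 and 2.62 with 2-nitrofluorene, 0.34, 0.35 and 0.64 with cisplatin, and 0.54, 1.25 and 1.15 with methyl methanesulfonate. For the hepatocyte genes it was -0.08 at the highest concentration of etoposide, -1.47 with aflatoxin B1, -1.19 with 2-nitrofluorene, -0.30 with cisplatin and -1.62 with methyl methanesulfonate. For the phase I enzymes it was -0.15, -2.99, -1.28, -0.59 and -1.24 in the same order.

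The etoposide slope minus the mean slope of those chemicals was tested in the same fit, and 6 of 13812 genes had a higher slope with etoposide (0.0434%) and 0 a lower one (0%). At an unadjusted p under 0.05 edgeR found 783 higher and 330 lower. At an adjusted p under 0.05 DESeq2 called 114 higher and 3 lower. ABCG5 (a sterol exporter of the hepatocyte), ACOT12 and BDH1 (enzymes of acetyl-CoA and ketone metabolism), APBB2, CXCL13 and DEFB132 were the 6 called by edgeR. For ACOT12 the fitted change over 3 levels was 0.37 with etoposide, -3.67 with aflatoxin B1, -3.37 with 2-nitrofluorene, -0.37 with cisplatin and -4.34 with methyl methanesulfonate (difference 3.31, SE 0.56, adjusted p = 0.0199). For BDH1 the same values were -0.07, -2.88, -3.19, -0.32 and -3.41 (difference 2.39, SE 0.42, adjusted p = 0.0229). In both genes cisplatin lay near etoposide and the other chemicals lay lower. The count depended on which chemicals entered the mean, with 277 genes called without cisplatin, 14 without aflatoxin B1, 3 without 2-nitrofluorene and 0 without methyl methanesulfonate.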

How the data were processed

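HepaRG RNA was measured on a human AmpliSeq whole-transcriptome panel (hg19, per the labels). The authors deposited raw counts for each amplicon, and RPM values that divide those counts by the total of their library. Of 20812 targets, 10 spike-in targets with a count of 0 were left out. Samples were grouped by their labels. Members and gene lists were chosen with earlier results of these data known.

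Counts were tested with edgeR 4.0.16 (TMM, filterByExpr, quasi-likelihood test, Benjamini-Hochberg adjustment over all genes tested) in R 4.3.3. The dose trend used 7 libraries (5 residual degrees of freedom). A further fit used 39 libraries with 9 control sets as blocks. As the 4 controls are labelled for different chemicals and each dose has 1 pooled library, p-values cover the spread between these libraries only. On simulated counts for the dose trend (12983 genes), 67 of 100 genes changed by a log2 of 1, 95 of 100 changed by 2, and 6 unchanged genes were called. In the 39-library fit (13812 genes) these were 29, 78 and 6. The simulated spread depended on the read level alone, unchanged genes had the same mean in every library, and changes followed the fitted dose coding. Real controls differed among themselves, so these shares need not hold for the real counts. RPM ratios used log2(RPM + 1), which understates changes of low genes, and a 2-fold limit, with no test. DESeq2 1.42.0, other scalings, filters, dose codings and left-out libraries were the alternatives. Named genes were 9 anchors (CDKN1A, MDM2, GDF15, TP53I3, DDB2, FDXR, TOP2A, CYP3A4 and ABCB1), the 10 strongest rises and falls of the dose trend, the 5 largest of the contrast and any gene of the lists. Others, among them FAM111B, ZWINT, MICALL1, S100A2, GSN, TREM2, DRAXIN and APOBEC3B, were named after their values were seen.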

Additional observations from a re-analysis of the deposited data

Results flagged for a closer look

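Among the 4 DMSO controls, 1 library stood far from the other three for 4 of the 90 genes of the text that were checked, and chance alone sets apart about 1 in 20 groups. For MDM2 the matched control of etoposide was the low one, its gap being 0.831 of the whole range on the log2(RPM + 1) scale, at 241 RPM against 390 to 431 RPM. For OAS3 it was the DMSO control of 2-nitrofluorene, with a gap of 0.911 of the range, at 4.19 RPM against 7.26 to 7.64 RPM. For CCNG1 the matched control was low, with a gap of 0.970 of the range, at 89.9 RPM against 146 to 148 RPM. For FOSB the DMSO control of aflatoxin B1 was high, with a gap of 0.916 of the range, at 35.1 RPM against 4.29 to 5.22 RPM.

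The slope with etoposide differed from the mean slope of the other DNA-damaging chemicals, by edgeR's test of the difference itself, for 6 genes. The differences over 3 levels were 3.90 for ABCG5, 3.67 for DEFB132, 3.31 for ACOT12, 2.39 for BDH1, 2.25 for CXCL13 and 1.25 for APBB2, on the log2 scale. In this order the fitted changes were 0.67, 1.48, 0.37, -0.07, 0.34 and 0.16 with etoposide. With cisplatin they were -0.08, 0.51, -0.37, -0.32, 0.01 and -0.13. Without methyl methanesulfonate in the mean, 0 genes were called.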

How the results depend on the processing

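The 16 genes of the dose trend were called again with RLE or library totals alone and with the dose as its level (22 calls), and there were 45 calls without a filter on low counts and 85 with DESeq2. Linear dose and a single step from DMSO to etoposide gave 0 calls each; the cause was not tested. Leaving out 1 library gave 8 to 24 calls (18 higher and 6 lower without the matched control), the lowest without the DMSO control of 2-nitrofluorene, 9 without that of cisplatin, 9 without 0.5 µM and 10 without 2.5 µM. Without 10 µM there were 23, of which 5 were among the 16. For the slope in 39 libraries DESeq2 gave 36 calls, the step 0, the sets with a DMSO control 0, and leaving out 1 etoposide library 2 to 5. For the contrast the values were 117 with DESeq2, 0 with the step, 0 against aflatoxin B1, 2-nitrofluorene and cisplatin, and 14, 3 and 277 without aflatoxin B1, 2-nitrofluorene and cisplatin.

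Targets past 2-fold in either direction, 16, 94 and 47 at 0.5, 2.5 and 10 µM, became 428, 1355 and 822 with a pseudocount of 0.1, and 158, 306 and 147 against the matched control alone. Against the other DMSO mean alone they were 26 and 138 at 0.5 and 10 µM. List medians at 10 µM moved by more than the spread of the controls with that mean, to 0.53 for p53 arrest, 0.43 for p53 death and 0.61 for replication. ABCB1 changed sign, to 0.015 with linear dose, and over the libraries left out in turn it ran from -0.326 (without 10 µM) to 0.04 (without the matched control; 0.005 without 2.5 µM). No paired analysis was possible because each concentration has 1 library. Depth limits genes of a few RPM, such as TREM2.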

Other observations

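TREM2, a receptor of myeloid cells, and DRAXIN, a secreted guidance protein of neurons, were nearly silent in the DMSO controls and were read after etoposide; both were chosen after their values were seen. TREM2 was at 1.06, 9.86 and 6.11 RPM at 0.5, 2.5 and 10 µM, against 0 to 0.30 RPM in the 4 controls, and was called up to 2.5 µM (adjusted p = 0.00148, edgeR) and in the fit of 39 libraries (adjusted p = 0.0433) but not up to 10 µM with 7 libraries (adjusted p = 0.0517). Up to 10 µM it was called with the dose as its level (adjusted p = 0.0175), without a filter on low counts (0.00169) and by DESeq2 (0.00401). DRAXIN had 6, 57 and 27 counts, and 0 in each of the 4 controls. Against an upper limit of 3 counts in the matched control, its RPM was 2.54-fold, 25.5-fold and 14-fold higher. That limit covers the counting error of the control only, not that of the etoposide counts. DRAXIN was not among the 16 genes of the dose trend. By edgeR it was called with the dose as its level (adjusted p = 0.0464) and without a filter on low counts (0.0138). DESeq2 called it too (adjusted p = 0.0455).

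APOBEC3B, a cytidine deaminase that edits single-stranded DNA, was also chosen after its values were seen. It was at 2.88, 4.78 and 5.53 RPM against 0.91 to 1.49 RPM in the controls (change 2.35, adjusted p = 0.0578, edgeR). By edgeR it was called with the dose as its level (adjusted p = 0.0244) and without a filter on low counts (0.017). DESeq2 called it too (adjusted p = 0.00171).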
